A study of Arabidopsis thaliana with 6 samples.

Results

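Leucine-rich repeat receptor kinases are plant membrane proteins with an outer domain built of leucine-rich repeats and an inner kinase domain. Many bind a secreted peptide or a fragment of a microbe and then pair with a shorter coreceptor kinase of the same fold, which starts phosphorylation inside the cell. In roots, members of the family are known for reading the peptides that maintain the stem cells of the meristem, pattern the vascular tissue, release elongation and report wounds and microbes. The genes described here are the 135 nuclear loci of the authors' deposited table whose annotation holds both "leucine-rich repeat" and "kinase", out of 22746 probe sets tested. The rule leaves out 6 loci, among them well-studied receptors and a coreceptor, and a receptor whose annotation lacks either term is not a member. Each member had 1 probe set. The probe sets of AT2G14510 and AT3G47090 can also read related transcripts, and neither of these 2 was called. The annotation of the AT2G13780 probe set named 2 loci, and this member was not called either.

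Root tips came from wild-type seedlings of Arabidopsis thaliana, Columbia (Col-0), 8 days old, grown upright on solid medium under continuous light and fixed in RNAlater. Zone II was a 1.5 mm section that held elongating cells and the zone of root hairs, and zone I was the 0.5 mm tip, made of root cap and dividing cells. Each zone was measured on 3 arrays, and the 6 arrays shared 1 genotype with no treatment. The labels do not tie the arrays to separate batches of plants. A p-value here thus rests on array-to-array spread alone, partly borrowed from probe sets of similar signal. This spread may be technical.

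The arrays had been scaled before deposit to a common trimmed mean. The median signal per array was 138.7 to 149.3 in zone II and 132.1 to 139.1 in zone I. Marker genes separated the sections as labelled. All 4 root hair markers were higher in zone II, where their summed signal was 23342 to 35683 per array, against 57.6 to 261.0 in zone I. All 4 endodermis and xylem markers were higher in zone II, with summed signals of 22802 to 36994 there and 13.0 to 258.2 in zone I. All 5 root tip markers were lower in zone II, with sums of 74.0 to 499.4 there and 2518 to 4481 in zone I. Of 3 leaf markers 2 were higher in zone II, with sums of 1020 to 3532 in zone II and 277.5 to 503.9 in zone I. The 4 pollen markers stayed under 64 on all arrays, where 64 is a signal in the range of probe set noise.

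More members were higher in zone II than in zone I. Zone II had the higher signal for 53 of the 135 members (39.3%) and the lower signal for 16 (11.9%), and 66 did not pass an adjusted p of 0.05 (limma, adjusted over all probe sets). Among all probe sets tested, 37.9% passed in either direction, 18.1% as higher in zone II and 19.8% as higher in zone I. The median difference of the members, on the log2 scale as zone II minus zone I, was 0.90, against -0.04 for all probe sets. With 64 added to every signal, which damps the differences of dim probe sets, these medians were 0.53 and -0.01. In sections of mixed tissue, more or fewer cells of one type and more or less RNA per cell cannot be told apart, and this holds for every difference given here. The root hair, endodermis and xylem markers were higher in zone II, like most called members, and the root tip markers were higher in zone I. The part of these tissues in the result was not tested.

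Members with large differences lay mostly on the zone II side. Among called members, 36 were at least 4-fold higher in zone II and 7 were at least 4-fold higher in zone I. Among all called probe sets, 2233 were at least 4-fold higher in zone II and 1606 in zone I. At 16-fold and above the counts were 13 and 1 for members, and 756 and 246 for all probe sets, which thus also lay more often on the zone II side at this size. Zone II and zone I arrays were fully separated for 87 members (64.4%), against 49.9% of all probe sets. Of these 87 members, 18 did not pass the adjusted p. Differences ran from -5.57 to 9.18. Among the members, 19 were under 64 on every array, so that neither level nor difference could be read well for them.

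**Figure D1:**
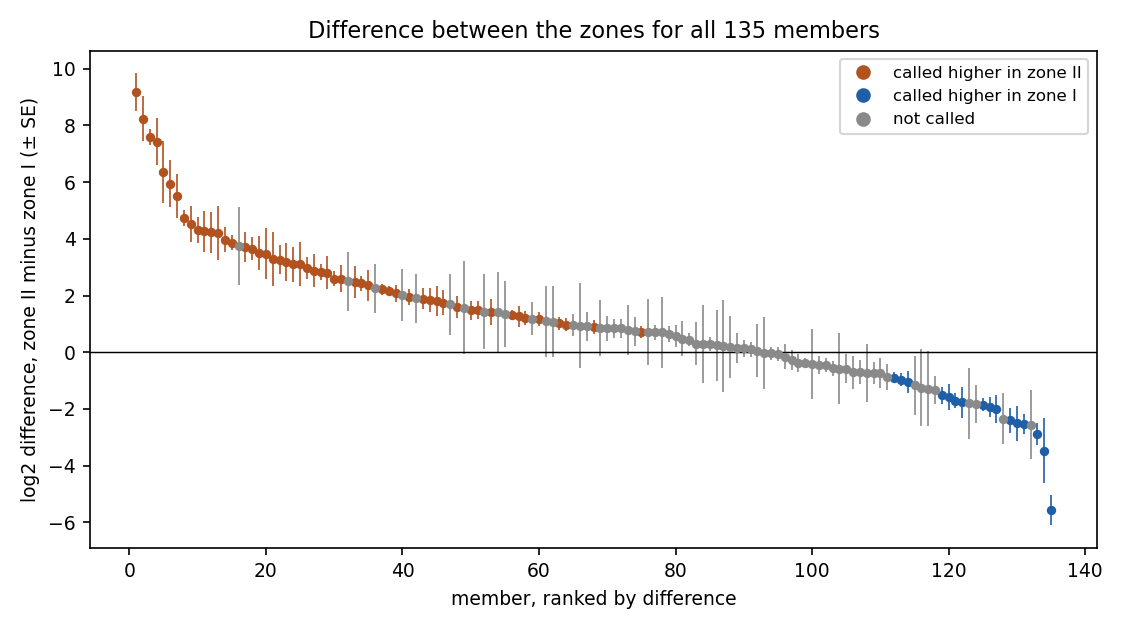
Log2 difference between zone II and zone I (zone II minus zone I, vertical axis) for each of the 135 members, ranked from highest to lowest. Bars show the moderated standard error of the limma fit to 3 arrays per zone. The 53 members called higher in zone II fill the left end up to 9.18, and the 16 called higher in zone I lie toward the right end down to -5.57.

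Other annotation families give a measure of how far this holds for kinases in general. Among 1193 kinases without the repeat in their annotation, zone II was higher for 332 (27.8%) and zone I for 171 (14.3%), with a median of 0.40. Of 63 leucine-rich repeat proteins without a kinase term, 15 (23.8%) were higher in zone II and 11 (17.5%) in zone I, with a median of -0.06. The shares over all probe sets were 18.1% and 19.8%. A further 51 known receptors and coreceptors of the family had an annotation that did not meet the rule. They gave 17 calls toward zone II (33.3%) and 6 toward zone I (11.8%), with a median of 0.54. The differences between these families were not tested. By annotation wording, 29 (36.25%) of the 80 members called a transmembrane protein kinase were higher in zone II and 14 (17.5%) in zone I. Of the 33 called a protein kinase, 14 (42.4%) were higher in zone II and 1 (3.0%) in zone I.

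The authors' deposited table called 56 members toward zone II and 19 toward zone I at its adjusted p under 0.05, which 45.6% of all its probe sets passed, with its unstated direction read as zone II over zone I. It shared 64 of the 69 calls made here, in the same direction, and none of its calls opposed one. That reading rests on a correlation of 0.870, over all probe sets, between the log2 fold change in the authors' deposited table and the difference computed here.

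The members with the widest gap toward zone II included genes named for root hairs. RHS16 (AT4G29180), one of the ROOT HAIR SPECIFIC genes, gave signals of 1910, 1624 and 1346 on the zone II arrays, against 1.91, 5.99 and 1.87 on the zone I arrays. The zone II arrays were bright and the zone I arrays were at noise. The difference was 9.18 ± 0.66 (SE, adjusted p = 4.38e-06), or 4.64 with 64 added. RHS6 (AT1G51880), from the same set of root hair genes, gave 305, 142 and 311 in zone II, against 2.78, 3.31 and 6.30 in zone I. Its groups did not overlap, and its difference was 5.94 ± 0.82 (adjusted p = 0.000196; 2.16 with 64 added).

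LRX1 (AT1G12040) met the rule through its annotation text alone. It is a leucine-rich repeat extensin of the root hair cell wall, without a receptor kinase domain. Its signal was 13828, 13704 and 12361 in zone II, against 110.0, 54.2 and 53.8 in zone I. The zone II arrays agreed closely, and the difference was 7.60 ± 0.28 (adjusted p = 1.64e-07; 6.63 with 64 added). Without LRX1, the calls were 52 toward zone II and 16 toward zone I among 134 members.

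AT5G49760, known as a cell-surface sensor of hydrogen peroxide, had 5312, 3545 and 3558 in zone II, against 224, 119.5 and 128 in zone I. The dimmer zone was clear of noise, and the difference of 4.75 ± 0.28 (adjusted p = 1.82e-06) was 4.25 with 64 added. AT3G56370, a kinase of the same list known in the root apex for polarised division, had 549, 961 and 909 in zone II, against 749.6, 669.6 and 779.9 in zone I. These groups overlapped, with a difference of 0.10 ± 0.25 (adjusted p = 0.805). Of the 3 listed root hair and root apex kinases that the rule did not take, MRH1, needed for root hair growth, lay at 4.27 and was called higher in zone II. The other receptor kinases of that list, IMK2 at -3.17 and MRLK at -1.85 (-1.12 with 64 added), were called higher in zone I. For MRLK the arrays of the zones overlapped.

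Among members without a role list, AT1G51860 had signals of 803, 440.2 and 468 in zone II, against 1.21, 2.13 and 2.36 in zone I. AT2G15300 had 1031, 599 and 508 in zone II, against 10.8, 3.81 and 1.50 in zone I. AT1G79620 had 744, 1508 and 750.0 in zone II, against 86.6, 7.31 and 13.8 in zone I. In each of these genes every zone II array lay above every zone I array, and 8 of the 9 zone I values were under 64. Their differences were 8.23 ± 0.79, 7.43 ± 0.82 and 5.52 ± 0.78, which became 3.22, 3.43 and 3.42 with 64 added (adjusted p = 1.80e-05, 4.51e-05 and 0.000236).

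**Figure D2:**
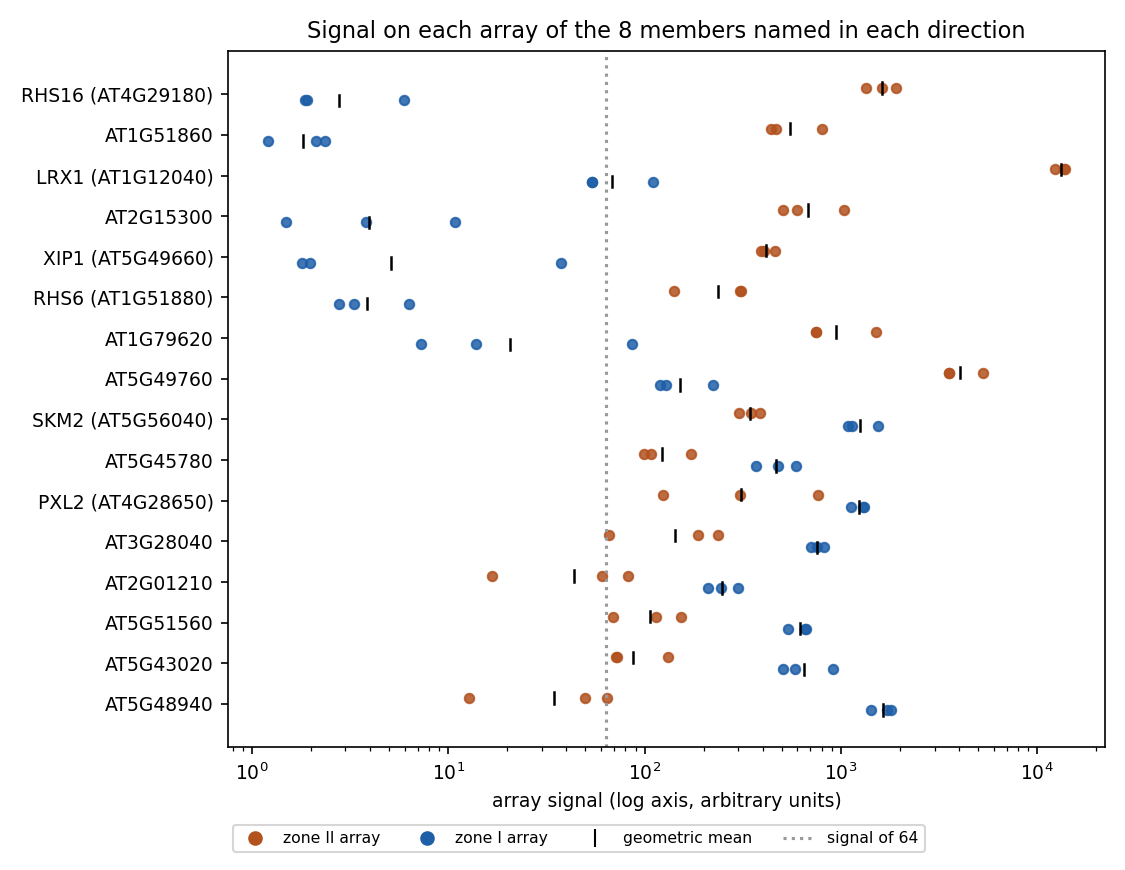
Array signal (horizontal log axis, arbitrary units) of the 8 members named in each direction by size of difference, with 1 point per array, 3 per zone, zone II above zone I for each gene, and a black tick at the geometric mean. The upper 8 genes have zone II arrays far right of zone I, whose points fall below the dotted line at 64 in most of them, and for the lower 8 genes the zone I arrays lie to the right.

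The members on the list of meristem peptide receptors ran the other way. All 4 members on that list were higher in zone I, against 19.8% of all probe sets, and none was higher in zone II. AT5G48940 is known as a receptor of root meristem growth factor peptides, which keep the stem cell niche active. Its signals were 49.6, 12.8 and 64.8 in zone II, against 1421, 1712 and 1789 in zone I. The zone I arrays were bright and tight while zone II was near noise, a difference of -5.57 ± 0.53 (adjusted p = 1.84e-05; -4.03 with 64 added). No other called member reached a difference this far toward zone I.

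SKM2 (AT5G56040), also known to bind these peptides, had 389, 302 and 350.3 in zone II, against 1549, 1144 and 1093 in zone I (-1.85 ± 0.23, adjusted p = 9.27e-05). AT3G24240, a related receptor of the peptides, had 1231, 1363 and 977 in zone II, against 2346, 1875 and 2375 in zone I (-0.89 ± 0.19, adjusted p = 0.00385). In both genes all zone II arrays lay below all zone I arrays, with clear signal in both zones. AT1G34110 had 156, 74.4 and 144 in zone II, against 195, 440.2 and 527 in zone I (-1.59 ± 0.46, adjusted p = 0.0188). Its call was the least firm of the 4, with an adjusted p of 0.0651 without the intensity trend and of 0.0647, 0.0835 and 0.0962 when zone II array 2, zone I array 2 or zone I array 3 was left out.

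The remaining receptors of that list, none of them a member, did not share one direction. CLV1, which reads CLE peptides in stem cell control, lay at 3.59 (2.59 with 64 added), BAM3 of the phloem at 1.97 and GSO2, a receptor for Casparian strip integrity, at 2.94 (1.46 with 64 added), all 3 called higher in zone II. BAM2 lay at -1.28 and was called higher in zone I. AT4G26540, a further receptor of root meristem growth factors, lay at 0.01 ± 0.36 (adjusted p = 0.982). The root tip markers were higher in zone I along with the 4 members of the list, and their part in the difference was not tested.

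Vascular receptors split. The 8 members gave 3 calls toward zone II and 1 toward zone I, and 4 did not pass. The shares were 37.5% and 12.5%, against 18.1% and 19.8% of all probe sets. XIP1 (AT5G49660), a receptor of CEP peptides that acts in xylem and in nitrogen signalling, had 393, 460.3 and 404 in zone II, against 1.99, 1.81 and 37.3 in zone I. Zone I was at noise, so the plain difference of 6.35 ± 1.09 (adjusted p = 0.000854) dropped to 2.66 with 64 added. RUL1 (AT5G05160), known to promote cambium activity, had 1544, 1308 and 1108 in zone II, against 82.1, 107 and 82.1 in zone I (3.87 ± 0.27, adjusted p = 4.23e-06).

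PXY (AT5G61480), which reads a CLE peptide in the cambium and orders its divisions, had 359.8, 184 and 219.5 in zone II, against 129, 38.4 and 68.0 in zone I (1.81 ± 0.53, adjusted p = 0.0197). The zone arrays did not overlap, but the adjusted p was 0.0763 without zone II array 1 and 0.0648 without zone I array 2. A close relative of PXY is PXL2 (AT4G28650), which had 124, 308 and 766 in zone II, against 1124, 1290 and 1307 in zone I. Its zone II arrays were scattered, all below zone I, and the difference was -2.01 ± 0.50 (adjusted p = 0.00874, and 0.0723 without the intensity trend). PXL1, the other PXY relative on the list and no member, lay at 1.26 and was called higher in zone II, with overlapping arrays. BRL2, a vascular relative of the brassinosteroid receptor, lay at 1.69 and was also called higher in zone II. The uncalled members were CEPR2 at 0.85, PXC3 at 0.29, PXC2 at -0.37 and PXC1 at -0.58. The endodermis and xylem markers were higher in zone II along with the members that were, and their part was not tested.

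The 2 members that read growth peptides gave opposite estimates, and 1 of them was called. PSY1R (AT1G72300), known for the sulfated peptide PSY1 and cell expansion, had 720.0, 622 and 698 in zone II, against 114, 122 and 47.5 in zone I (2.96 ± 0.40, adjusted p = 0.000156). PSKR2 (AT5G53890), a receptor of phytosulfokine, had 96.8, 124 and 22.7 in zone II, against 221, 369 and 149 in zone I. The PSKR2 arrays did not overlap, but -1.82 ± 0.66 missed the threshold at an adjusted p of 0.0506. The same role list held 5 receptors outside the rule, of which 1 (20%) was higher in zone II and none in zone I. Over all probe sets these shares were 18.1% and 19.8%. The called receptor of the 5 was HSL1, at 2.11, while PSKR1 lay at 0.80 ± 0.45 and was not called. Of the 5 phytosulfokine genes, 3 were higher in zone II. PSK4, which encodes a phytosulfokine precursor, lay at 6.48 (3.07 with 64 added), PSK5 at 3.28 (2.10 with 64 added) and PSK3 at 1.57, all called. PSK1 lay at -0.68 and PSK2 at 2.15, and neither was called. TPST, the enzyme that sulfates these peptides and the root meristem growth factors, lay at -1.01 ± 0.28 and was higher in zone I (adjusted p = 0.014).

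Receptors of immunity were on the zone II side where they passed. Of the 4 members, zone II was higher for 3 and zone I for none, and zone II was also higher for 4 of 6 listed receptors outside the rule. Among all probe sets, zone II was higher for 18.1% and zone I for 19.8%. IOS1 (AT1G51800), a kinase that works with immune receptors, had 538, 634 and 869.9 in zone II, against 50.0, 37.5 and 79.6 in zone I (3.65 ± 0.40, adjusted p = 4.31e-05; 2.63 with 64 added). AT1G51850 had 411, 1026 and 1203 in zone II, against 97.8, 11.3 and 65.1 in zone I (4.26 ± 0.73, adjusted p = 0.000859; 2.90 with 64 added). PEPR2 (AT1G17750), a receptor of the Pep danger peptides, had 298, 215 and 296 in zone II, against 85.8, 90.0 and 88.6 in zone I (1.60 ± 0.38, adjusted p = 0.00621). The uncalled member, AT1G35710, was near 64 or below on all arrays and lay at 0.30 (adjusted p = 0.797).

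PEPR1, the other Pep receptor and no member, lay at 1.24 and was called higher in zone II. The peptide precursors PROPEP1, PROPEP2 and PROPEP3 lay at 3.13, 4.90 and 4.72, or 1.46, 1.46 and 1.73 with 64 added, and all 3 were called. Of the kinases below the receptors, BIK1 lay at 2.50 (1.53 with 64 added), PBL1 at 1.26 and MPK3 at 1.46, all called higher in zone II. MKK4 at -0.98 and MKK5 at -0.83, which act above MPK3, were called higher in zone I. Across the listed ligands and processing genes 6 of 15 were higher in zone II and 1 in zone I. Across the listed partners and downstream genes the counts were 4 and 3 of 13. These shares were 40% and 6.7% for ligands and processing genes, 30.8% and 23.1% for partners, and 18.1% and 19.8% for all probe sets.

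Coreceptors and regulators of receptor complexes were mixed. Coreceptors lend their kinase domain to a ligand-bound receptor. All 3 member coreceptors passed, against 37.9% of all probe sets. AT5G45780 had 99.6, 108 and 173 in zone II, against 370.1, 477 and 588 in zone I (-1.93 ± 0.35, adjusted p = 0.00118). SARK (AT4G30520), also known from leaf senescence, had 154, 234 and 132 in zone II, against 524, 495 and 435 in zone I (-1.52 ± 0.31, adjusted p = 0.00266). AT2G23950 went the opposite way, with 775, 1522 and 1110 in zone II, against 504, 271 and 439 in zone I (1.48 ± 0.31, adjusted p = 0.00291). Outside the rule, SERK2 was called at -1.84 and NIK2 at 2.44, and 4 others did not pass.

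BIR proteins hold coreceptors back from receptors, and SOBIR1 is an adaptor of receptor-like proteins without a kinase. BIR1 (AT5G48380) had 993, 777 and 669 in zone II, against 247, 202 and 136 in zone I (2.08 ± 0.30, adjusted p = 0.00026). BIR2 (AT3G28450) had 281, 443 and 255 in zone II, against 91.3, 156 and 59.2 in zone I (1.75 ± 0.45, adjusted p = 0.00982, and 0.0525 without zone II array 2). Both genes had zone II arrays above all zone I arrays. SOBIR1 lay at 0.65, AT1G27190 at -0.46 and AT1G69990 at 2.51, and none of these 3 passed. The AT1G69990 difference was 0.68 with 64 added, and with arrays left out it ran from 1.58 (adjusted p = 0.365, with array 1 dropped from each zone) to 3.62 (adjusted p = 0.017, without zone I array 3).

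TMK kinases act at the plasma membrane in auxin signalling. BARK1 (AT3G23750) had 2207, 2687 and 2877 in zone II, against 1189, 1000 and 953 in zone I (1.30 ± 0.18, adjusted p = 0.000226). AT2G01820 had 1253, 1426 and 1500 in zone II, against 956, 899 and 701 in zone I (0.72 ± 0.20, adjusted p = 0.0142, and 0.0795 without the intensity trend). Without zone I array 3 the adjusted p of AT2G01820 was 0.0681. AT1G24650 was under 64 on all arrays. TMK1, no member, lay at 0.71 and was called higher in zone II.

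AT3G02880, of the atypical LRR-III kinase group, had 6744, 8642 and 7589 in zone II, against 1772, 1878 and 1478 in zone I (2.16 ± 0.17, adjusted p = 6.52e-06). It was among the 4 members with the highest mean log2 signal over the 6 arrays, with BARK1, AT3G24240 and AT3G08680. AT3G08680 had 978, 1174 and 1871 in zone II, against 2575, 2562 and 2475 in zone I (-0.98 ± 0.23, adjusted p = 0.0063, and 0.0657 without the intensity trend). Of the listed relatives of AT3G02880 outside the rule, RKL1 lay at 1.98 and RLK902 at -2.74, called in opposite directions. The pollen receptors PRK1, PRK3, PRK4 and PRK5 were uncalled, at 0.05, 0.71, 1.09 and 1.69. Each of those 4 had a geometric mean under 64 in both zones.

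**Figure D3:**
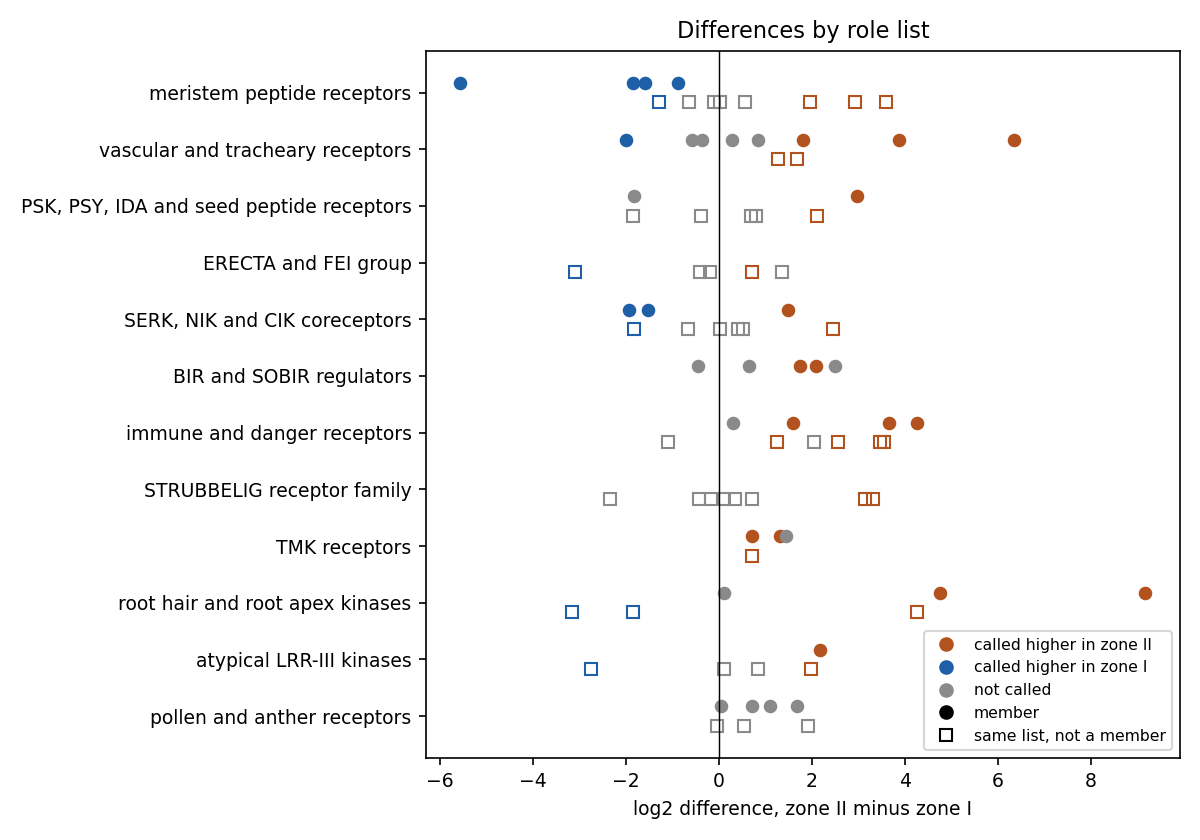
Log2 difference between zone II and zone I (zone II minus zone I, horizontal axis) of every gene on the role lists, with filled circles for members and open squares for genes of the same list outside the rule, coloured by call. The 4 meristem peptide receptors that are members lie left of 0, while the called immune receptors lie right of 0 for members and for the others alike.

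Members with no role list made up 98 of the 135. Zone II was higher for 38 of them (38.8%) and zone I for 9 (9.2%), against 18.1% and 19.8% of all probe sets. By the naming rule, those 9 were represented by AT5G43020 at -2.88 ± 0.38, AT5G51560 at -2.53 ± 0.35, AT2G01210 at -2.51 ± 0.63 (-1.46 with 64 added) and AT3G28040 at -2.40 ± 0.43, besides AT3G08680. AT5G43020 had signals of 72.2, 71.5 and 131 in zone II, against 509, 583 and 911 in zone I. AT5G51560 had 69.1, 114 and 154 in zone II, against 540.3, 656 and 667 in zone I. In both, every zone II array was below every zone I array.

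Among unlisted members that carry a gene name, picked after their values were seen, SKM1 (AT2G25790), known from pollen tube growth, lay at 2.44 ± 0.27. LIK1 (AT3G14840), known as a partner of a chitin receptor, lay at 2.23 ± 0.20, and both were called higher in zone II. SIRK1 (AT5G10020), known from sucrose signalling, lay at -0.57 and MOL1 (AT5G51350), known from cambium control, at -0.72, and neither passed.

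Members that sit next to each other on a chromosome were higher in zone II where they passed, as were 76.8% of all called members. With at most 1 gene between neighbours, 25 members formed 9 groups, and 11 of the 25 (44%) were higher in zone II while none was higher in zone I. Of the 110 members outside the groups, 42 (38.2%) were higher in zone II and 16 (14.5%) in zone I. For all probe sets these shares were 18.1% and 19.8%. Opposite calls could show only in groups with more than 1 call, those starting at AT1G51850, AT2G28960 and AT5G49760. The groups on chromosome 1 hold IOS1, AT1G51850, AT1G51860 and RHS6. In the group of 4 from AT1G51850 to AT1G51890, 3 were called, and AT1G51890 lay at 3.74 ± 1.38 (adjusted p = 0.0537), with overlapping arrays and a difference of 0.64 with 64 added. In the group from AT2G28960 to AT2G29000, 3 of 4 were called, at 2.60, 3.19 and 3.29, or 1.67, 1.73 and 0.61 with 64 added. The last of these, AT2G29000, was under 64 on all 6 arrays, and its call was lost without zone II array 3, without zone I array 3 and when array 1 was dropped from each zone. AT5G49760 and its neighbour AT5G49770, at 3.10 (1.59 with 64 added), were both called. In contrast, none of the 4 from AT5G59650 to AT5G59680 passed, with differences from -0.71 to 0.91. Neighbouring genes can share sequence, and whether their probe sets read each other's transcripts was not tested.

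**Figure D4:**
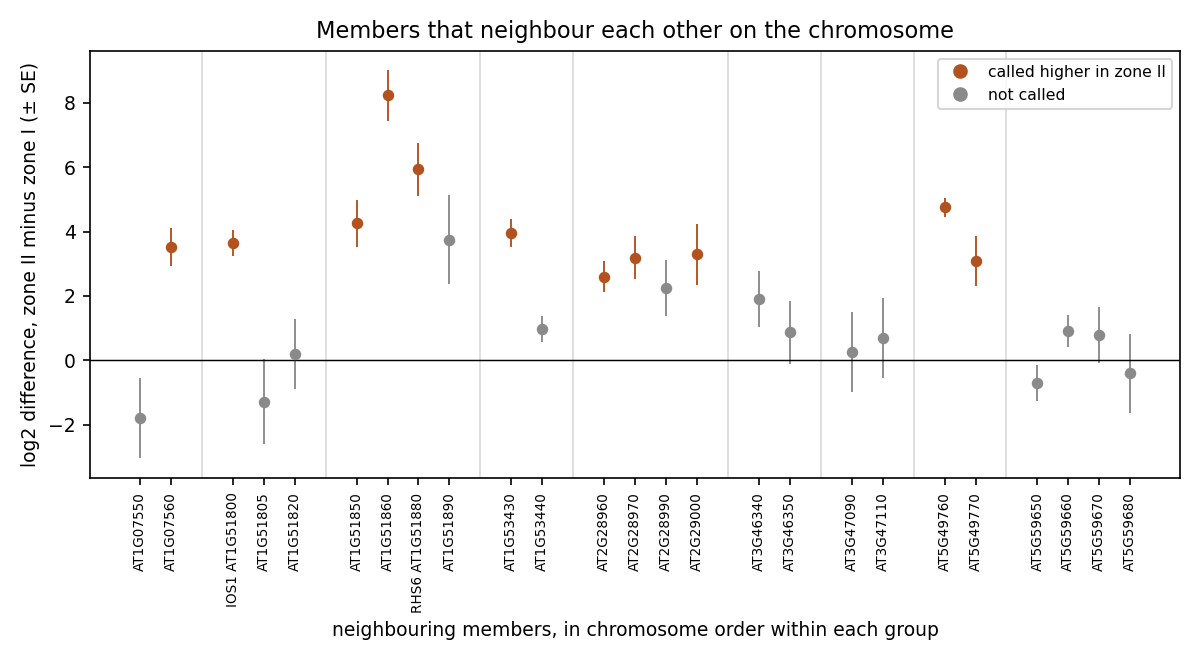
Log2 difference between zone II and zone I (zone II minus zone I, vertical axis, with standard error bars) for the 25 members in 9 groups of chromosome neighbours, separated by vertical lines. The called members, all higher in zone II, fall in 6 of the 9 groups, and the largest difference is the 8.23 of AT1G51860.

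Arrays of 1 zone were not alike for the called members. On zone II array 3, 13 of the 16 members higher in zone I were brighter than the mean of the other zone II arrays, with a median log2 excess of 0.76. On zone I array 1, 35 of the 53 members higher in zone II were brighter than the mean of the other zone I arrays, with a median log2 excess of 0.31. These were the largest upward shifts of each set, picked after their values were seen. Of all 22746 probe sets, 11182 were brighter in this way on zone II array 3 and 10427 on zone I array 1. For all probe sets the medians on these 2 arrays were -0.02 and -0.06. The 5 root tip markers had a median of -0.49 on zone II array 3 and of -0.45 on zone I array 1. On zone II array 2 their median was 0.75, while that of the members higher in zone I was -0.15. For the 4 root hair markers the medians were -0.31 on zone II array 3 and 0.45 on zone I array 1. On zone I array 1, 2 of these 4 were brighter than the mean of the other zone I arrays. The part of tissue composition in these shifts was not tested. Leaving out zone II array 3 gave 51 calls toward zone II and 16 toward zone I. Leaving out zone I array 1 gave 52 and 14.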

How the data were processed

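Signals came from 6 arrays, 3 of zone II and 3 of zone I, grouped by the sample titles. The authors deposited linear intensity values for 22810 probe sets, produced with MAS5 and Affymetrix Expression Console per the submitters' processing notes (no source used here gives their versions or settings). These intensities had been scaled to 1 trimmed mean of about 500, a value found from the files. No detection calls came with them. The authors also deposited a table of log2 fold changes with p-values, adjusted p-values and annotation text; no source used here gives its test or direction.

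The deposited normalization was kept and log2 taken. After removal of 64 control probe sets, 22746 were fitted in limma 3.58.1 (R 4.3.3; lmFit, eBayes with intensity trend, 2 zones, no covariates), with Benjamini-Hochberg adjustment over all of them and a call where the adjusted p was below 0.05. Each difference is log2 zone II minus zone I, n = 3 per zone, with the moderated standard error of the fit. This error takes the variance of a probe set partly from other probe sets of similar signal. The number of arrays limits the precision. Markers and role lists were counted, not tested. The members and lists were chosen with earlier results of these data known.

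Named genes were all role-list members, the 8 largest called differences per direction without overlap, with 1 gene per probe set and a brighter zone above the median signal of all probe sets, and the 4 members with the highest mean log2 signal. Other genes named, including chromosome neighbours, were chosen after their values were seen. Symbols come from the TAIR10.1 RefSeq annotation, which held 134 of the 135 members; AT2G13780 had no gene of its own there. Roles are background knowledge. Alternatives were a replicate block, offsets of 16 and 64, equal medians, quantile normalization, a 40th percentile filter on mean log2 signal, no trend, robust eBayes, array weights, shared probe sets left out, and arrays left out. Protein features, promoter motifs and pairs chosen by protein identity were planned and not analysed here, and no sequences are printed. Figures were made in Python 3.11.15 with matplotlib 3.10.9.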

Additional observations from a re-analysis of the deposited data

How the results depend on the processing

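The counts of members higher in zone II and in zone I stayed within 1.5 times of 53 and 16 in every alternative tried, and no call turned direction. Without the intensity trend 59 of the 69 calls were kept, and 54 were kept in all alternatives that tested them. The median difference of 0.90 moved to 0.69 with 16 added and to 0.53 with 64 added, as the construction of an offset shrinks differences of dim probe sets. With arrays left out it ran from 0.76 to 1.06, and the cause was not tested. Leaving out arrays gave 50 to 52 members higher in zone II and 12 to 18 in zone I. Quantile normalization moved the median of all probe sets by -0.10 (to -0.15) and the members' median to 0.81.

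Same-numbered arrays of the zones did not deviate together over all probe sets (correlations of 0.00406, 0.036 and 0.0373). These correlations include many dim probe sets at noise, so they cannot settle whether equal numbers mark a shared batch. With the replicate block 52 members were higher in zone II and 16 in zone I, 67 of the 69 calls were kept, and PSKR2 passed (adjusted p = 0.0208). PSKR2 passed in 9 alternatives.

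Some uncalled members, with a difference near 0 or a large standard error, changed sign. PRK1 lay at -0.19 under quantile normalization and -0.019 with equal medians, and from -0.60 to 0.88 with arrays left out. PRK3 ran from -0.29 to 1.37 and AT3G56370 from -0.051 to 0.37 with arrays left out. The calls most often lost were those of AT1G62950 and AT3G50230, each in 7 alternatives. Signal over background limits the 19 members under 64 on all arrays.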
